A study of Mus musculus with 6 samples.

Results

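Azurophil (primary) granules are the storage granules that neutrophil precursors fill with myeloperoxidase and serine proteases. The 8 genes described here were listed as encoding azurophil granule proteins. They are the peroxidase Mpo, the serine proteases Elane, Prtn3, Ctsg and Prss57, the lectin Fcnb, the granule membrane protein Nkg7 and the proteoglycan Srgn. They were taken by gene name, and 8 of the 56884 genes in the table matched. RNA sequencing measured them in mature neutrophils sorted as CD101+ Ly6G+ cells from mouse bone marrow and cultured outside the animal. DKK1 (Dickkopf-1, a secreted protein that binds Wnt co-receptors) was in the culture of 3 libraries, and the other 3 libraries, called control, were cultured without it. No strain, age or sex of the mice, DKK1 dose or culture length was stated in the sources used. The labels do not tie libraries to animals or culture wells, so each p-value reflects spread among libraries, which may be technical.

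Transcripts for azurophil granule proteins are made early, in myeloblasts and promyelocytes, and are shut off as the cell matures, while the proteins stay stored for the life of the neutrophil. The proteases are made as inactive precursors and are trimmed by cathepsin C. Serglycin, whose sulfated sugar chains bind proteases, helps to hold some of them in the granule. In neutrophil precursors the promoters of these genes are known to be driven by PU.1, MYB, C/EBP and RUNX1 factors. A mature neutrophil is therefore a cell in which most of these transcripts are low, and serglycin, which blood cells with granules go on making, is the exception.

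The stretches upstream of 5 of the genes are shown because all 5 hold the same run of letters, AGGAAGT, a core that PU.1 and other ETS-family factors are known to bind. They come from RefSeq on GRCm38.p6 (mm10) and run 5′ to 3′ along the gene, each starting 250 bases before the RefSeq start and ending before the first untranslated base that GENCODE M21 annotates there. The Prtn3 stretch lies in an intron of a longer annotated Prtn3 transcript that starts further upstream. Capitals mark AGGAAGT.
Mpo, chr11:87793534-87793580, plus strand: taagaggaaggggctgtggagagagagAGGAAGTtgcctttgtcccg
Elane, chr10:79886062-79886246, plus strand: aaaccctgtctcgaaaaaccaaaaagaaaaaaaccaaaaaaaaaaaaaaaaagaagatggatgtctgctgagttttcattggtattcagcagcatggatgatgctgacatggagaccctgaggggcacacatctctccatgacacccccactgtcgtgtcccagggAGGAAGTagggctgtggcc
Prtn3, chr10:79879417-79879613, plus strand: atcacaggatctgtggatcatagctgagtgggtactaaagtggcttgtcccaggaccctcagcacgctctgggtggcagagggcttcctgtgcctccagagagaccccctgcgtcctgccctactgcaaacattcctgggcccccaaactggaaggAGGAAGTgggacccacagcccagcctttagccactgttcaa
Ctsg, chr14:56102575-56102824, minus strand: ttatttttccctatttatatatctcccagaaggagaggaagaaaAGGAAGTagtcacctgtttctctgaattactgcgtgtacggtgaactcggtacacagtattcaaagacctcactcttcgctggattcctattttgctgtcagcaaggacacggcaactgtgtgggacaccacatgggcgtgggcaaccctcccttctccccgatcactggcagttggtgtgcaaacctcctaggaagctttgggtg
Fcnb, chr2:28084886-28085128, minus strand: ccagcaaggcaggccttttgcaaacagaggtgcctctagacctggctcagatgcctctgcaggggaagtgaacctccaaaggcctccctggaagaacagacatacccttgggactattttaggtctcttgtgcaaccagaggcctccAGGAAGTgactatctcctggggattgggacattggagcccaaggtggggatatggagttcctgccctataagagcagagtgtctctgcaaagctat

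The letters AGGAAGT began 223 bases before the RefSeq start in Mpo, 84 in Elane, 94 in Prtn3, 206 in Ctsg and 103 in Fcnb, each on the strand of the gene. On either strand (AGGAAGT or ACTTCCT) they occurred in the 250 bases before the start in 5 of the 7 members that have a RefSeq promoter in the reference table, and in 7.69% of 32851 mouse promoters. The letters were not in the windows of Srgn and Nkg7, and Prss57 has no entry there. A MYB core, AACGG (or CCGTT), was present in Elane and Prtn3 and in 14.5% of all promoters. It lay 50 bases before the start in Elane and 55 in Prtn3. A C/EBP core, GCAAT (or ATTGC), was present in Elane and Mpo, 57 and 56 bases before the start, and in 23.1% of all promoters. These motifs were picked with the sequences in view, and they do not overlap one another in these windows. The 30 bases around the MYB core of the neighbouring genes Elane and Prtn3 are shown with the core in capitals. In GENCODE M21 the Elane core lies in the untranslated part of the first exon, and the Prtn3 window spans the start of the first exon of the main transcript.
Elane, chr10:79886250-79886279, plus strand: atggggcaatacAACGGcctctggttccag
Prtn3, chr10:79879600-79879629, plus strand: tagccactgttcAACGGctcccggcagagc

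Read depth, recovered from the table as described under processing, ranged from 5188116 reads in DKK1 library 2 to 8749228 in DKK1 library 1, and from 8688911 to 9851961 in the control libraries. The DKK1 libraries differed far more from control than these genes alone. By limma, with p-values adjusted by Benjamini-Hochberg, 71.2% of the 16265 tested genes changed: 35.1% were higher and 36.1% lower with DKK1. The sorting markers of mature neutrophils were among the falls: Cd101 averaged 3.53 ± 2.31 normalized counts with DKK1 and 5098 ± 178 in control, and Ly6g 5.96 ± 1.30 with DKK1 and 1338 ± 72.7 in control (SD, n = 3 each). All 10 markers of mature neutrophils checked here fell, and their summed level was 3390.2 to 3480.0 with DKK1 and 714997 to 741500.0 in control. The defining markers of the sorted cell type were thus nearly absent from the DKK1 libraries. DKK1 library 2 stood apart within its group: the chi-square per degree of freedom over gene counts was 12.35 against DKK1 library 1 and 11.4 against DKK1 library 3, while it was 2.96 between DKK1 libraries 1 and 3 and 2.15 to 2.21 between control libraries. Without DKK1 library 2, 5651 genes were called higher and 5895 lower, and the same 6 members were called lower. Their log2 changes were then -3.32 for Mpo, -3.89 for Elane, -2.33 for Prtn3, -5.29 for Prss57, -2.83 for Fcnb and -3.15 for Srgn, and that of Ctsg was 0.42 and did not pass. Normalized counts summed to 6738824 ± 336773 per DKK1 library and 9729307 ± 39771 per control library (SD, n = 3 each). When each library was scaled to the same sum, the median log2 change of all tested genes moved to 0.44, against -0.03 as deposited, and 72.8% of genes were called, 43.6% higher and 29.2% lower. In bulk RNA, fewer cells that make a transcript and less of it per cell cannot be told apart.

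Most of these transcripts were lower with DKK1, some of them to the edge of detection. Mpo, Elane, Prtn3, Prss57, Fcnb and Srgn were called lower, against a background of 36.1% of tested genes called lower, and Ctsg did not pass. In the same 6 of the 7 tested members every DKK1 library lay below every control library, against 37.4% of all tested genes. Nkg7 was too low to enter the test. Of the 7 tested members, Elane and Prss57 entered through their control libraries alone, and Prtn3 would not have entered on its DKK1 libraries. With control values as low as their DKK1 values, these genes would not have been tested. The count of members called is for that reason a description and not support for a shift of the group. Mpo, Ctsg, Fcnb and Srgn reached a normalized count of 1 in all 6 libraries.

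**Figure D1:**
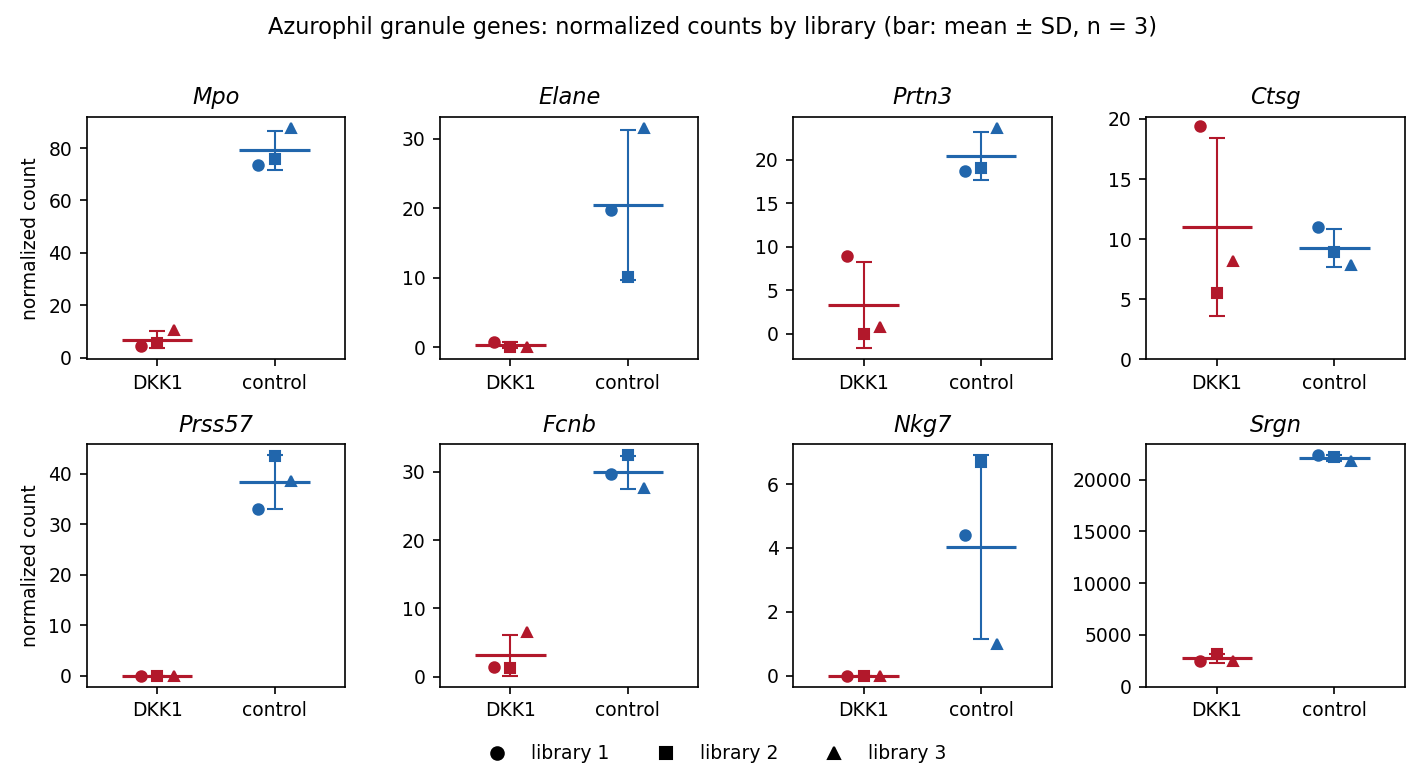
Normalized counts of the 8 azurophil granule genes, a panel per gene with its own linear axis, DKK1 libraries in red and control libraries in blue. Points are libraries, horizontal bars are means and error bars are SD (n = 3). The groups overlap for Ctsg, and the DKK1 libraries of Prss57 and Nkg7 stand at 0.

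Mpo encodes myeloperoxidase, the haem enzyme that makes hypochlorous acid from peroxide and chloride. It lies on chromosome 11 from 87793581 to 87804413, plus strand (ENSMUSG00000009350.14; all gene positions follow GENCODE M21 and GRCm38). The DKK1 libraries 1 to 3 had 4.47, 5.49 and 10.6 normalized counts, and the control libraries 1 to 3 had 73.6, 76.0 and 87.7. The groups did not overlap, and DKK1 library 3 was the highest of its group. Behind these values stood 6, 4 and 13 reads with DKK1 and 67, 68 and 89 in control. Pooled over the libraries, Mpo was 11.4-fold lower with DKK1 (95% exact counting interval 7.39 to 18.3). Its log2 change was -3.42 (SE 0.34, limma adjusted p = 1.59e-05), and -2.93 with equal total reads. The antisense gene Gm11505, whose exons overlap those of Mpo, was at 0 reads in all 6 libraries. Of 3508 different 50-base windows in Mpo transcripts, 332 also occur in transcripts of 30 genes, Gm11505 among them, and how reads in such windows were assigned is not known here.

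Elane and Prtn3 are neighbours on chromosome 10, with 3072 bases between them, and encode neutrophil elastase and proteinase 3, serine proteases that cleave matrix and microbial proteins. Elane (ENSMUSG00000020125.8) runs from 79886247 to 79888215 on the plus strand and Prtn3 (ENSMUSG00000057729.13) from 79874476 to 79883174 on the same strand. Elane had 1, 0 and 0 reads in DKK1 libraries 1 to 3, against 18, 9 and 32 reads in control libraries 1 to 3. Its normalized counts averaged 0.248 ± 0.430 with DKK1 and 20.4 ± 10.8 in control (SD, n = 3 each). The single DKK1 read put Elane 68.9-fold lower, with a 95% exact counting interval from 11.9 to 2767. The control libraries of Elane were themselves spread, and every control library lay above every DKK1 library. The log2 change was -4.02 (SE 0.55, limma adjusted p = 0.000135).

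Prtn3 had 12, 0 and 1 reads in DKK1 libraries 1 to 3 and 17, 17 and 24 reads in control libraries 1 to 3. In normalized counts these were 8.94, 0 and 0.817 with DKK1 and 18.7, 19.0 and 23.6 in control. DKK1 library 1 thus held nearly all the Prtn3 reads of its group and was still below each control library. The pooled fold was 5.21-fold lower with DKK1 (95% exact counting interval 2.82 to 10.4). The log2 change was -3.02 (SE 0.78, limma adjusted p = 0.00659). It depended on the DKK1 library left out, at -3.98 without DKK1 library 1 and -2.33 without DKK1 library 2, and passed the threshold both times.

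Ctsg encodes cathepsin G, a chymotrypsin-like protease that mast cells are also known to make. It lies on chromosome 14 from 56099881 to 56102574, minus strand (ENSMUSG00000040314.3). The DKK1 libraries 1 to 3 had 19.4, 5.49 and 8.17 normalized counts from 26, 4 and 10 reads, and the control libraries 1 to 3 had 11.0, 8.94 and 7.88 from 10, 8 and 8 reads. The groups overlapped, with DKK1 library 1 above and DKK1 library 2 below all the control libraries. The pooled ratio of DKK1 to control was 1.32 (95% exact counting interval 0.784 to 2.25). The log2 change was 0.07 (SE 0.49, limma adjusted p = 0.910), and -0.40 without DKK1 library 1. With equal total reads it was 0.55, and the adjusted p = 0.358. At 40 reads with DKK1 and 26 in control, a change was not resolved. That interval covers counting error only and leaves out the spread among libraries, so it does not bound the change.

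Ratios within a library do not depend on scaling, and 3 were computed, chosen after the values were seen. The ratio of Ctsg to Mpo was 4.33, 1.00 and 0.769 in DKK1 libraries 1 to 3, and 0.149, 0.118 and 0.0899 in control libraries 1 to 3. Every DKK1 library was above every control library, by 3.68 on the log2 scale on average. An exact two-sided permutation test over the 6 libraries gave p = 0.10, the smallest value that 3 against 3 allows. As the ratio was chosen with the values in view, this p-value is a description only. The DKK1 ratios rest on few reads: 26, 4 and 10 of Ctsg and 6, 4 and 13 of Mpo in libraries 1 to 3. The ratio of Fcnb to Mpo overlapped between the groups, at 0.333, 0.25 and 0.615 with DKK1 and 0.403, 0.426 and 0.315 in control (exact permutation p = 1.0). The ratio of Mpo to Srgn overlapped as well (exact permutation p = 0.40).

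Prss57 encodes a further neutrophil serine protease, with trypsin-like specificity. It lies 83514 bases from Prtn3 on chromosome 10, from 79781474 to 79790961 on the minus strand (ENSMUSG00000020323.15). It had 0 reads in each DKK1 library, and 30, 39 and 39 reads in control libraries 1 to 3. The control values were 32.9, 43.6 and 38.4 normalized counts. Against a floor of 3 reads over the group, which corresponds to 0.911 normalized counts with DKK1, Prss57 was at least 42.0-fold lower. The 95% exact counting interval, which also covers the error of the control reads, reached down to 33.6-fold. The limma adjusted p was 2.46e-06.

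The values of Prss57 may include reads of Fstl3, a follistatin-like gene whose exons overlap those of Prss57 on the opposite strand, because no source used states whether counting was strand-aware. Of 2887 different 50-base windows in the Prss57 transcripts, 1108 also occur in Fstl3 transcripts, and counts per gene do not show how many reads fell in them. Fstl3 had 0 reads in each DKK1 library, as Prss57 did, and 20, 30 and 29 reads in control libraries 1 to 3. Both genes had their lowest control value in library 1 and their highest in library 2. Fstl3 was at least 30.8-fold lower with DKK1, with an exact interval that reached down to 24.4-fold, and was called lower (limma adjusted p = 6.61e-06). Prtn3 overlaps Plppr3, a gene for a membrane protein of the phospholipid phosphatase family, on the opposite strand as well, over 110 of its 1706 windows. Plppr3 did not pass (limma adjusted p = 0.648): its values were 10.4, 4.12 and 10.6 with DKK1 and 6.59, 20.1 and 6.90 in control, and the groups overlapped.

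**Figure D2:**
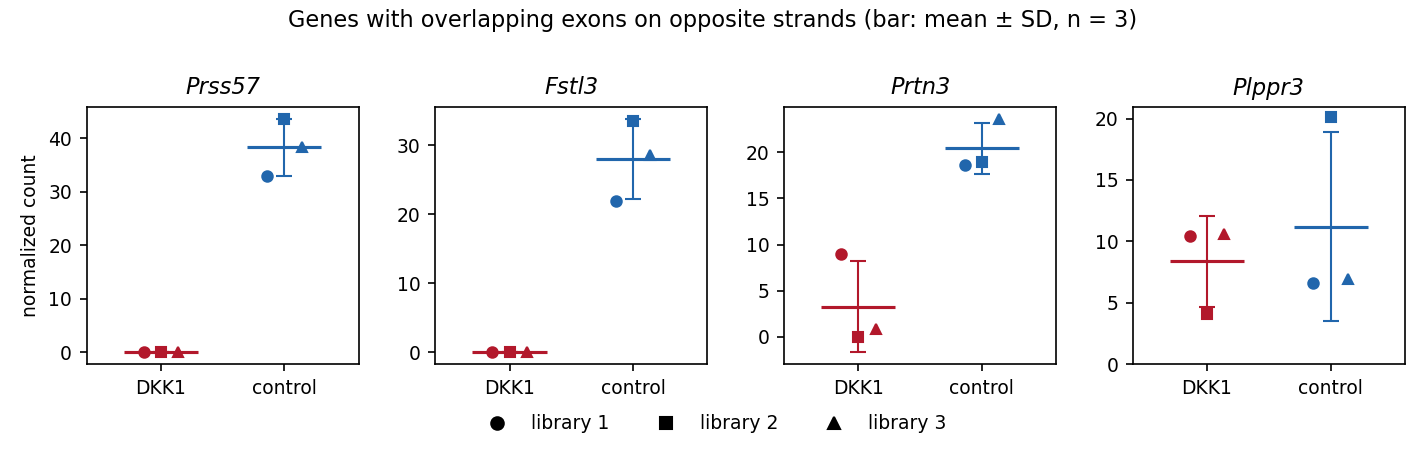
Normalized counts of 2 pairs of genes whose exons overlap on opposite strands, DKK1 libraries in red and control libraries in blue, each panel with its own linear axis. Points are libraries, with mean ± SD (n = 3). Prss57 and Fstl3 are both at 0 in the DKK1 libraries, while Plppr3 overlaps between groups and Prtn3 does not.

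Fcnb encodes ficolin B, a lectin of myeloid cells that recognizes sugars on microbes and can start the lectin pathway of complement. It lies on chromosome 2 from 28076378 to 28084885, minus strand (ENSMUSG00000026835.16). DKK1 libraries 1 to 3 had 1.49, 1.37 and 6.53 normalized counts from 2, 1 and 8 reads, against 29.7, 32.4 and 27.6 from 27, 29 and 28 reads in control libraries 1 to 3. The groups were well apart, and DKK1 library 3 was the highest of its group, as it was for Mpo. Fcnb was 8.92-fold lower (95% exact counting interval 4.74 to 18.5), with a log2 change of -3.12 (SE 0.51, limma adjusted p = 0.000447).

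Nkg7 encodes a membrane protein of cytotoxic granules, best known from natural killer and T cells. It lies on chromosome 7 from 43437073 to 43438249, plus strand (ENSMUSG00000004612.10). It had 0 reads in each DKK1 library, and 4, 6 and 1 reads in control libraries 1 to 3. Against the floor of 3 reads it was at least 4.28-fold lower with DKK1. The 95% exact counting interval, which also covers the error of the 11 control reads, reached down to 2.93-fold. It did not reach the filter. With no filter on low values the adjusted p was 0.0133 by limma and 0.0132 by edgeR on recovered reads, where 25.8% of 22586 genes were called lower by either tool. Of 16 listed markers of natural killer and T cells, 5 could be tested. Cd3d, Cd3g and Gzma were called lower, against 36.1% of all tested genes, but each reached the filter through its control libraries, so the count is a description only. Ccl5, a chemokine gene, rose to 46.2 ± 14.7 normalized counts with DKK1, against 2.50 ± 0.701 in control. Cd3d had 0.497 ± 0.861 normalized counts with DKK1 and 58.1 ± 14.5 in control, and Cd3g 0 with DKK1 and 5.78 ± 2.92 in control (SD, n = 3 each). The defining markers Prf1, Ncr1, Trbc2 and Tbx21 were at 0 reads in all 6 libraries. Summed over the list, these markers stood at 37.1 to 67.8 normalized counts with DKK1 and 52.2 to 87.9 in control. Most of that sum was Ccl5 with DKK1 and Cd3d in control, so the sums do not compare the same genes. Their part in the Nkg7 values was not tested.

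Srgn encodes serglycin, the proteoglycan core to which granule proteases and other cargo bind. It lies on chromosome 10 from 62493833 to 62527451, minus strand (ENSMUSG00000020077.15). It stood apart from the other members in level. DKK1 libraries 1 to 3 had 2486, 3194 and 2490.3 normalized counts, against 22390.2, 22204 and 21816 in control libraries 1 to 3. DKK1 library 2 was the highest of its group and was far below every control library. Srgn was 8.37-fold lower with DKK1 (95% exact counting interval 8.18 to 8.56), with a log2 change of -3.03 (SE 0.09, limma adjusted p = 4.25e-09) and -2.50 with equal total reads.

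**Figure D3:**
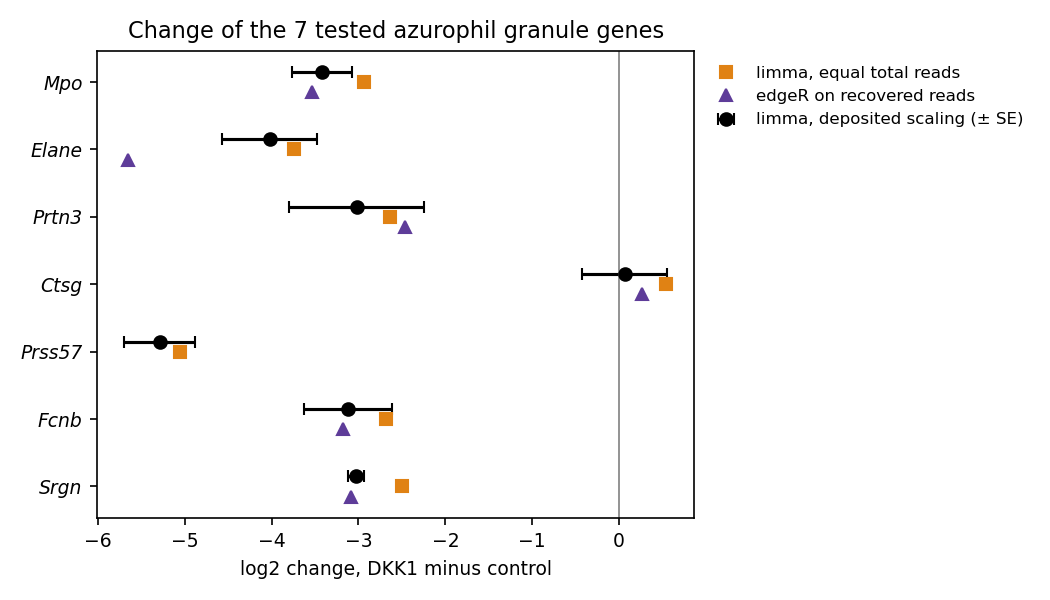
Log2 change (DKK1 minus control) of the 7 tested genes under limma on the deposited scaling (black, ± SE), limma with equal total reads (orange squares) and edgeR on recovered reads (purple triangles). Ctsg lies near 0 and the others lie below it under each of these. No edgeR point is drawn for Prss57, whose DKK1 libraries are at 0 reads.

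Levels of different genes were compared per kilobase of annotated exon. With DKK1, Srgn led with 1240.2 ± 185 normalized counts per kilobase, and Ctsg at 10.7 ± 7.13 came second. Fcnb at 2.34 ± 2.20, Mpo at 2.00 ± 0.961 and Prtn3 at 1.88 ± 2.86 per kilobase were within their spread of one another. Elane was at 0.252 ± 0.437, and Prss57 and Nkg7 had 0 reads (SD, n = 3 each). In control, Srgn again led, with 10080.4 ± 133 per kilobase. Mpo followed at 23.1 ± 2.21, Fcnb at 22.3 ± 1.80 and Elane at 20.8 ± 10.9, and these neighbours were within their spread of one another. Prss57 at 13.5 ± 1.87 and Prtn3 at 11.8 ± 1.61 came next, also within their spread. Ctsg at 8.97 ± 1.53, second with DKK1, was above only Nkg7 at 4.41 ± 3.15 in control (SD, n = 3 each). All members but Srgn together held 47, 9 and 32 reads in DKK1 libraries 1 to 3 and 173, 176 and 221 in control libraries 1 to 3. DKK1 library 2, with the fewest reads in total, also held the fewest of these. It was lowest in normalized counts as well, with sums of 35.0, 12.4 and 26.1 in DKK1 libraries 1 to 3.

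The members did not share their high library within the DKK1 group. Ctsg and Prtn3 were highest in DKK1 library 1, and Mpo and Fcnb in DKK1 library 3. Genes of basophils and mast cells differed between these libraries too. Mcpt8, a basophil protease gene, had 97.6, 45.3 and 38.4 normalized counts in DKK1 libraries 1 to 3, against 14.3, 5.59 and 18.7 in control libraries 1 to 3. Cpa3, a carboxypeptidase gene of mast cells and basophils, had 66.3, 27.5 and 24.5 with DKK1, against 8.79, 7.82 and 3.94 in control. Both were highest in DKK1 library 1 and both rose (limma adjusted p = 0.00333 and 0.00193). Prss34, another basophil protease gene, rose as well but was highest in DKK1 library 2, with 81.2, 96.2 and 34.3 in DKK1 libraries 1 to 3, against 19.8, 7.82 and 26.6 in control libraries 1 to 3. Kit was also highest in DKK1 library 2, with 253, 309 and 193 in DKK1 libraries 1 to 3. Ms4a2 and Gata2, also among the mast cell, basophil and eosinophil markers checked, rose too (limma adjusted p = 0.00215 and 0.00126). Ms4a2 had 26.8, 20.6 and 19.6 normalized counts in DKK1 libraries 1 to 3, and Gata2 had 33.54, 21.98 and 23.68. Mcpt8, Cpa3, Ms4a2 and Gata2 were thus highest in DKK1 library 1, as Ctsg and Prtn3 were, while Prss34 and Kit were not. Of 9 tested mast cell, basophil and eosinophil markers, 5 rose and 1 fell, against 35.1% and 36.1% of all tested genes. The mast cell genes Cma1, Mcpt4, Tpsb2 and Tpsab1 were at 0 reads in all 6 libraries. The summed level of the list was 240.4 to 376 with DKK1 and 14109 to 14693 in control, nearly all of it Hdc in control. The eosinophil gene Prg2, named after its values were seen, stood at 0, 4.12 and 150.2 in DKK1 libraries 1 to 3, so that it was highest in library 3, and at 7.69, 3.35 and 13.8 in control. The part of such cells in the values of Ctsg, Prtn3, Mpo and Fcnb was not tested.

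Other constituents of azurophil granules, many of which are lysosomal enzymes found in most cells, rose more often than they fell. Of 18 tested, 11 rose, 5 fell and 2 did not pass, with a median log2 change of 1.17 against -0.03 over all tested genes. Of all tested genes, 35.1% rose and 36.1% fell. Gaa, acid alpha-glucosidase, averaged 1151 ± 13.6 normalized counts with DKK1 and 94.0 ± 7.24 in control. The tetraspanin gene Cd63, whose product marks azurophil granule membranes, averaged 6776 ± 50.4 with DKK1 and 851 ± 33.4 in control. Psap, the precursor of the sphingolipid-activating saposins, reached 102736 ± 2181 with DKK1 and 21096 ± 205 in control. In each of these 3 the DKK1 libraries lay above all control libraries. Lysozyme and alpha-mannosidase fell: Lyz2 averaged 4170 ± 207 with DKK1 and 19892 ± 416 in control, and Man2b1 averaged 236 ± 13.7 with DKK1 and 6520 ± 119 in control (SD, n = 3 each throughout).

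Genes that activate or hold back the proteases split. Ctsc, the gene of the activating protease cathepsin C, stood at 96.1 ± 28.1 with DKK1 and 114 ± 2.33 in control and did not pass (limma adjusted p = 0.279). Serpinb1a, a cytosolic inhibitor of elastase and cathepsin G, fell to 7.96 ± 4.78 with DKK1, against 207 ± 9.14 in control. Slpi, a secreted inhibitor of elastase and cathepsin G, rose to 19252 ± 1033 with DKK1, against 6575 ± 50.7 in control (SD, n = 3 each). Of 5 tested genes on the list, these were the 1 that fell and the 1 that rose, against 36.1% and 35.1% of all tested genes.

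Genes of granule sorting and release were mostly lower: of 11 tested, 7 fell and 3 rose, or 6 and 4 with equal total reads. Over all tested genes 36.1% fell and 35.1% rose, or 29.2% and 43.6% with equal total reads. The median log2 change was -0.91, or -0.38 with equal total reads. Rab27a, a GTPase that docks azurophil granules, averaged 19.3 ± 16.5 with DKK1 and 4640 ± 100.3 in control. Its partner in release Unc13d averaged 29.7 ± 8.06 with DKK1 and 1362 ± 82.7 in control. Lyst, the gene whose loss gives giant granules in Chediak-Higashi syndrome, averaged 1772 ± 179 with DKK1 and 17661 ± 126 in control. The AP-3 adaptor, which sorts elastase to granules, did not move as one. Its subunit gene Ap3s1 rose to 2803 ± 36.7 with DKK1, against 865 ± 58.3 in control. The subunit genes Ap3b1 and Ap3m1, named with Ap3d1 after their values were seen, fell: Ap3b1 averaged 595 ± 66.3 with DKK1 and 802 ± 49.2 in control, and Ap3m1 459 ± 74.1 with DKK1 and 855 ± 21.8 in control. Ap3d1 did not pass, at 1661 ± 135 with DKK1 and 1768 ± 111 in control. With equal total reads Ap3s1 and Ap3d1 were called higher, Ap3m1 lower, and Ap3b1 did not pass. Jagn1, a gene of the secretory pathway needed in neutrophils, rose to 130.0 ± 14.9 with DKK1, against 27.1 ± 4.09 in control (SD, n = 3 each).

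Among regulators known to act on azurophil granule genes, 6 of 10 tested fell, 2 rose and 2 did not pass. Over all tested genes 36.1% fell and 35.1% rose. With equal total reads 4 of these regulators fell and 2 rose, against 29.2% and 43.6% of all tested genes. Spi1, which encodes PU.1, averaged 1495 ± 42.2 with DKK1 and 5522 ± 74.3 in control. Cebpe, a factor of granule maturation, averaged 23.1 ± 7.58 with DKK1 and 192 ± 18.7 in control, and Cebpd averaged 60.9 ± 6.18 with DKK1 and 2845 ± 72.4 in control. Gfi1, a repressor in granulocyte precursors, rose to 87.2 ± 32.1 with DKK1, against 14.0 ± 3.36 in control (SD, n = 3 each). Myb did not pass (limma adjusted p = 0.109), with 35.3 ± 9.05 with DKK1 and 51.6 ± 11.4 in control. Runx1 rose to 490 ± 75.5 with DKK1, against 317 ± 22.3 in control. Myb and Runx1 were named for their role after their values were seen.

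Granulocyte progenitor genes gave few calls. Of 10 tested, 7 did not pass, 2 rose and 1 fell, where 35.1% of all tested genes rose and 36.1% fell. Their median log2 change was -0.40, and 0.06 with equal total reads. Ms4a3, a gene of granulocyte-monocyte progenitors that is expressed beside Mpo and Elane, stood at 3.73, 0 and 8.17 normalized counts in DKK1 libraries 1 to 3 and 13.2, 7.82 and 9.85 in control libraries 1 to 3, and did not pass (limma adjusted p = 0.0806). DKK1 library 3 overlapped the control libraries. Kit, the stem cell factor receptor gene of progenitors and mast cells, rose to 251 ± 58.2 with DKK1, against 32.9 ± 4.73 in control, and Plac8 fell to 13.7 ± 4.77 with DKK1, against 427 ± 5.92 in control (SD, n = 3 each).

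Serglycin carries chondroitin sulfate chains, and the genes that build them split evenly, with 6 of 13 tested higher and 6 lower (7 and 6 with equal total reads). The shares over all tested genes were 35.1% higher and 36.1% lower. Those that fell included Chsy1, a chain-elongating synthase, at 31.1 ± 8.49 with DKK1 and 3013 ± 76.0 in control, and the sulfotransferase Chst15 at 14.5 ± 3.86 with DKK1 and 1363 ± 60.0 in control. Xylt1, which adds the first sugar, averaged 1214 ± 137 with DKK1 and 4241 ± 82.8 in control. B4galt7, which adds the next sugar of the linker, rose to 169 ± 10.5 with DKK1, against 38.9 ± 2.35 in control (SD, n = 3 each). Of 7 genes of neutrophil extracellular traps and the oxidase that feeds myeloperoxidase, 5 fell and 1 rose, or 5 and 2 with equal total reads. Here too the background was 36.1% of all tested genes lower and 35.1% higher. Padi4, which citrullinates histones, averaged 39.4 ± 12.7 with DKK1 and 5510.2 ± 85.1 in control, and the oxidase subunit gene Cyba rose to 7313 ± 231 with DKK1, against 2448 ± 65.8 in control (SD, n = 3 each).

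**Figure D4:**
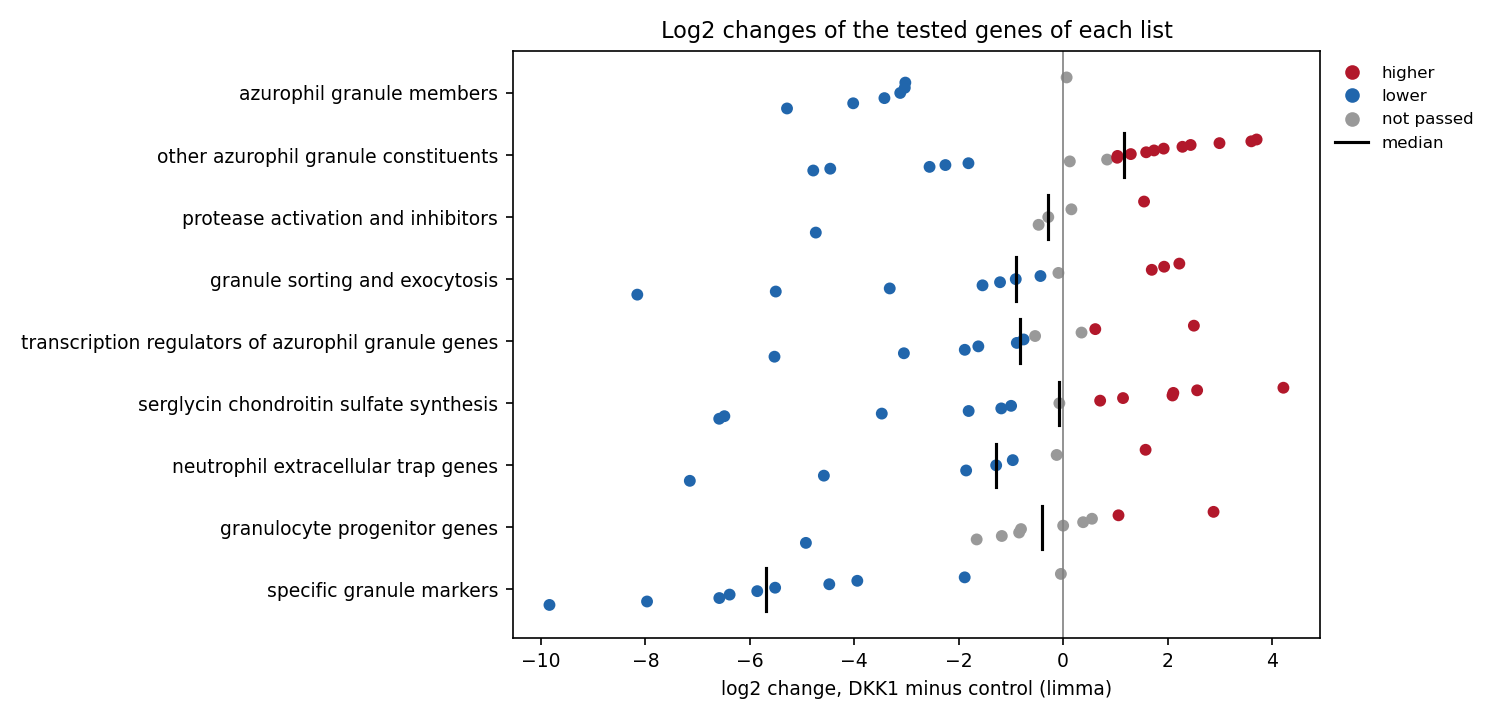
Log2 change (DKK1 minus control, limma) of each tested gene in the azurophil granule members, in the related gene lists and in the specific granule markers. Red points were called higher, blue points lower and grey points did not pass; black ticks are list medians, not drawn for the members. Other azurophil granule constituents lie mostly above 0, and specific granule markers mostly below it.

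Specific granules are filled later in maturation than azurophil granules, and their genes were set beside the members. Of 10 specific granule markers tested, 9 fell, against 36.1% of all tested genes, and 1 did not pass. Their median log2 change was -5.69, or -5.16 with equal total reads, under which 1 was called higher. The marker that did not pass was Camp, which was also the one called higher with equal total reads. Camp, named after its values were seen, averaged 517 ± 26.6 with DKK1 and 534 ± 48.7 in control (SD, n = 3 each). Mmp8, neutrophil collagenase, averaged 108 ± 6.35 with DKK1 and 27332 ± 416 in control, and Ltf, lactoferrin, averaged 107 ± 22.9 with DKK1 and 1628 ± 47.6 in control (SD, n = 3 each). Whether the fall differed between the granule classes was not tested. Of 14 monocyte and macrophage markers tested, 4 rose and 7 fell, or 5 and 4 with equal total reads. Over all tested genes 35.1% rose and 36.1% fell, or 43.6% and 29.2% with equal total reads. Their summed level was 15319 to 15453 with DKK1 and 7409 to 7558 in control. Cd68, a lysosomal membrane gene of macrophages, stood at 10121 ± 286 with DKK1 and 902 ± 43.7 in control (SD, n = 3 each). The macrophage gene C1qa was at 0 reads with DKK1 and at 21.3 ± 1.92 in control, and the part of such cells in the values of the lysosomal constituents was not tested.

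Srgn, the member with the highest level, was compared with all other genes averaging at least 100 normalized counts. The 5 genes most like it by Pearson correlation of log2 values over the 6 libraries were Ccl6, Sat1, Plaur, Lilrb4a and Adgre5, with r from 0.999954 to 0.999970. All 5 were lower with DKK1 and, within the DKK1 group, highest in library 2, as Srgn was. Ccl6 had 199, 342 and 207 normalized counts in DKK1 libraries 1 to 3 and 27470.3, 27515 and 26635 in control libraries 1 to 3. With 3 libraries on each side of a large difference, 1379 of 6742 genes had r above 0.99, so this likeness is a description of the contrast they share.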

How the data were processed

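The authors deposited normalized counts per gene and library, a signal that is never negative, per the file headers; the genome build was mm10, per the submitters' processing notes, with no aligner, counter, annotation or scaling method stated in the sources used. The table also holds 3 columns that match none of the samples described, left out here. Every deposited value was a whole multiple of the value of 1 read in its library (100% within 0.001 reads), so reads were recovered.

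Groups came from sample titles. Differences were tested by limma (version 3.58.1, R version 4.3.3, with trended and robust variance) on log2(normalized count + 1), for genes with a value of at least 1 in at least 3 of 6 libraries, 16265 in all, with two-sided p-values adjusted by Benjamini-Hochberg and a threshold of 0.05. The design foresaw limma for normalized values. Adding 1 shrinks the log2 changes of low genes. Where libraries of a group differ, the mean of logs can still give a larger change. For Prtn3 it was -3.02 by limma and -2.46 by edgeR on recovered reads. Folds are ratios of pooled reads per unit of library size, with exact 95% intervals, and a group at 0 was set to a floor of 3 reads. Reads carry no molecular identifiers, so intervals and floors cover counting error only. The alternatives were other pseudocounts, filters and scalings, a replicate block, leaving out each library, and edgeR 4.0.16 and DESeq2 1.42.0 on recovered reads. Simulated data were used to test the fitting.

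The members and the gene lists were chosen with earlier results of these data known. The rule for named genes took the 8 members, Cd101 and Ly6g, and up to 6 tested genes of smallest adjusted p from each of 12 related lists, plus natural killer and T cell markers with at least 10 reads in a library; others are genes at 0 reads, overlapping genes, or are said to be named after their values were seen. Identifiers were matched to GENCODE M21 without their version, 51948 (91.3%) of them. Of listed genes, Vamp7 was not analysed here, and some that the rule takes are not reported here. Libraries within a group differed beyond counting noise, which cannot show whether they came from separate cultures or animals. Each library was treated as a replicate in the tests.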

Additional observations from a re-analysis of the deposited data

How the results depend on the processing

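Mpo, Elane, Prtn3, Prss57, Fcnb and Srgn stayed lower and past the threshold under each of the 19 alternatives (17 planned, 2 with edgeR added after seeing the data). The largest adjusted p was 0.000355 for Mpo, 0.00165 for Elane, 0.0383 for Prtn3, with a pseudocount of 0.1, and 0.00382 for Fcnb. Over these alternatives their log2 changes ranged from -3.74 to -2.42 for Mpo, -6.51 to -1.51 for Elane, -4.44 to -1.26 for Prtn3, -8.58 to -2.27 for Prss57, -3.66 to -1.62 for Fcnb and -3.15 to -2.34 for Srgn. With no filter Nkg7 was called as well, making 7. Ctsg passed under none of the 18 that tested it. Its log2 change ranged from -0.40 to 0.42 when a library was left out, and was -0.03 without control library 3. Over all genes, 4927 to 7098 were called higher and 4742 to 6025 lower across the alternatives.

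Same-numbered DKK1 and control libraries did not deviate together (correlations of -0.00517, 0.00659 and 0.0172). This shows no sign of pairing by replicate number but cannot exclude a shared source. With the replicate block 5630 genes were called higher and 5817 lower, and the log2 change of Mpo was -3.42 as without it; the block changed no call of a member.

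With equal total reads the median log2 change was 0.24 for protease activation and inhibitors, 0.0617 for progenitor genes, 0.46 for chondroitin sulfate synthesis and 0.0108 for monocyte markers, each negative as deposited. The chondroitin sulfate median was also 0.0026 with no filter, 0.0909 with quantile scaling, 0.19 with edgeR and no filter, and from -0.14 to 0.0079 when a library was left out. As deposited, the medians of these lists were -0.29, -0.40, -0.07 and -0.40, in the order above. Equal total reads also moved the median of all tested genes, from -0.03 to 0.44. The cause of the reversals was not tested further. The count called lower moved to 2, against 1, for the protease list under 9 alternatives and for progenitor genes under 6. Trap genes called higher numbered 2, against 1, and specific granule markers called higher 1, against 0, with equal total reads or quantile scaling. Mast cell, basophil and eosinophil markers called lower numbered 2, against 1, without DKK1 library 3 or control library 2. Natural killer and T cell markers called lower numbered 1, against 3, with the filter of 10, and monocyte markers 4, against 7, with equal total reads.

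At 0 to 40 reads per group with DKK1, the size of the fall of Elane, Prss57 and Nkg7 is bounded on 1 side only or loosely, and Ctsg could not be resolved.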
